A study of Mus musculus with 2 samples.

Results

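The genes described here are 10 members of the insulin-like growth factor (IGF) system: the ligand gene Igf1, the receptor genes Igf1r and Insr, and the binding protein genes Igfbp1 to Igfbp7. They were found by their symbols in the alignment-free transcript tables and joined by gene identifier to the gene tables, which held 55536 annotated genes. All 10 matched 1 gene each. The RNA came from whole adrenal glands of male B6CASTF1/J mice aged 4 days, an F1 hybrid of C57BL/6J and CAST/EiJ with no treatment or engineered allele in the labels. There was 1 group with 2 biological replicates, so the data hold no contrast between conditions, and the comparisons are between genes and between the libraries. The labels give the replicates different biosample identifiers but 1 donor label, so the replicates may be less than fully independent animals. The p-values below cover counting error between these libraries and no spread between animals. The labels name no separation of cortex from medulla and no pooling of animals.

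IGF1 and IGF2 are peptide hormones that promote growth through the IGF1 receptor, a tyrosine kinase closely related to the insulin receptor. In blood and tissue fluid most IGF is held by binding proteins, which carry it, prolong its life and limit or aid its access to the receptor. Liver is the main endocrine source of IGF1 after birth, and hepatocytes secrete IGFBP1 and IGFBP2. The other binding proteins are made by stroma, vessels and many epithelia, and the division is not strict. Igf1, Igfbp1 and Igfbp2 were therefore set apart as liver-type members by this textbook knowledge, and the other 7 members were set against them. Earlier results of these data were known when the sets were chosen, so the split was not made blind to the values. A wider set that counts Igfbp4 as liver-type is given at the end.

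Igfbp1 and Igfbp2 each lie next to another binding protein gene, end to end on opposite strands. Igfbp1 (ENSMUSG00000020429.7, chromosome 11, 7197782 to 7202546 in mm10, plus strand) is followed after 3.54 kb by Igfbp3 (ENSMUSG00000020427.11, 7206086 to 7213923, minus strand). Igfbp2 (ENSMUSG00000039323.18, chromosome 1, 72824503 to 72852474, plus strand) is followed after 5.46 kb by Igfbp5 (ENSMUSG00000026185.8, 72857932 to 72874884, minus strand). No gene is annotated between the members of either pair. The bases from -200 to -21 before the RefSeq start (GRCm38.p6) are shown for these 4 genes, because a liver-type and another member sit side by side in each pair. Capitals mark matches, on either strand, to the core of the insulin response element (TNTTTTG), a half-site of the liver transcription factor HNF1 (GTTAAT) or a TATA box (TATAAA).
Igfbp1, chr11:7197587-7197766, plus strand: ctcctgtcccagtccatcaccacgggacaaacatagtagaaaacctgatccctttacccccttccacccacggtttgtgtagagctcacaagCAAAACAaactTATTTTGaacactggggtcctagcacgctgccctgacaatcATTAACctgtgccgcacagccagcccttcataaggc
Igfbp3, chr11:7213944-7214123, minus strand: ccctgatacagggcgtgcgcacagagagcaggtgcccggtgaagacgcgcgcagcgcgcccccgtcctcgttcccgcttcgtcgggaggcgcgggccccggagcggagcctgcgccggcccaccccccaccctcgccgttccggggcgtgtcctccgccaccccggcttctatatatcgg
Igfbp2, chr1:72824280-72824459, plus strand: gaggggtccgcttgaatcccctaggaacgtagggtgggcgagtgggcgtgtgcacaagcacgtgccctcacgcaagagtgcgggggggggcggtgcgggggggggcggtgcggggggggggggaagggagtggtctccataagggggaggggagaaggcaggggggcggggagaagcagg
Igfbp5, chr1:72874886-72875065, minus strand: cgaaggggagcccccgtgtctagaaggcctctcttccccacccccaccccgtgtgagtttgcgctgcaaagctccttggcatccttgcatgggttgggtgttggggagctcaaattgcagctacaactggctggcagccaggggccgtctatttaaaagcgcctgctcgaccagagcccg
The Igfbp1 window held the insulin response core 2 times, at -108 to -102 on the minus strand and at -97 to -91 on the plus strand, and the HNF1 half-site once, at -56 to -51 on the minus strand. None of these motifs was found in the windows of Igfbp2, Igfbp3 and Igfbp5. For Igfbp2, 2 RefSeq starts are listed, and only the window shown is described. Of 32843 promoter windows of the same length, 12.2% held the insulin response core, 4.71% the HNF1 half-site and 9.34% the TATA box. The Igfbp1 window was 51.1% G and C with 4 CpG dinucleotides, near the median window (52.8%, 4 CpG), whereas those of Igfbp2, Igfbp3 and Igfbp5 were at 72.2%, 74.4% and 61.1% with 12, 26 and 8 CpG. A match is a description of the letters and no measurement of binding.

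The gene tables held 32231301 and 30292851 expected counts in replicates 1 and 2, so a gene with 0 counts could have made up at most 0.0931 and 0.0990 CPM (3 counts). All 9 cortex and all 8 medulla marker genes were above 1 TPM, led by Hsd3b1 and Cyp21a1 and by Chga and Chgb. The libraries differed in genes of other tissues. All 14 liver marker genes were detected in both libraries, and their TPM added up to 243 in the first library and to 6416 in the second. Of 5 kidney marker genes tested, 4 were higher in replicate 1. In such whole-tissue RNA, fewer cells of a type and less RNA per cell cannot be told apart.

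The unit TPM is a gene's length-scaled share of all transcripts, brought to the same total in each library, so levels of different genes can be set side by side. All 10 members were detected above 1 TPM in both libraries and spanned from 12.3 to 268 TPM in their means. Igfbp7, whose product binds IGFs weakly and is abundant in blood vessels, stood far above the rest. Igfbp7 (chromosome 5, 77349240 to 77408041) had 266 and 269 TPM in replicates 1 and 2, from 8975 and 8184 counts. Its mean of 268 ± 2.10 TPM (SD, n = 2) ranked it 142nd among nuclear protein-coding genes. The end of Igfbp7 overlaps that of Polr2b only from 77349240 to 77349324. Polr2b lies on the other strand and had 32.6 and 31.6 TPM. No source used here states a strand setting for the counts, so reads in this short stretch could belong to either gene.

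**Figure D1:**
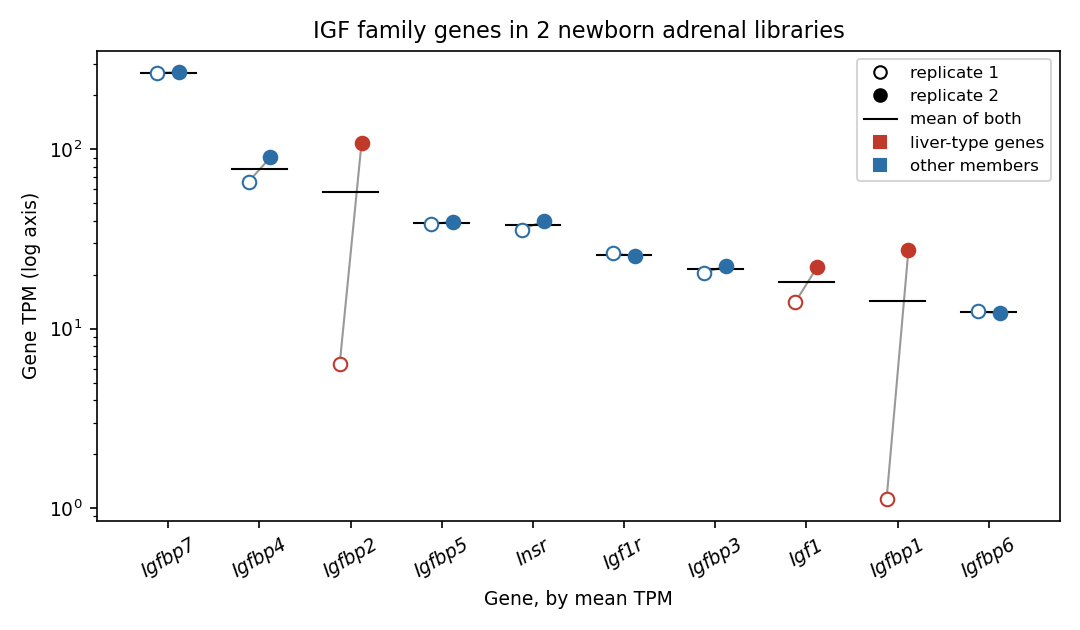
Gene TPM of the 10 members on a log axis, with replicate 1 as open and replicate 2 as filled circles and the mean as a bar. Igfbp7 lies highest at 266 and 269 TPM, and the circles of Igfbp1 and Igfbp2 lie furthest apart.

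Igfbp4, an inhibitor of IGF action that proteases can inactivate, came next with 66.0 and 90.2 TPM (78.1 ± 17.1). It was followed in mean level by Igfbp2, with 6.32 and 109 TPM in the libraries. The mean of Igfbp2, 57.5 ± 72.3 TPM, describes neither library. Igfbp5, which binds extracellular matrix, had 38.2 and 39.4 TPM and Insr 35.7 and 39.9 TPM, so these neighbours overlapped. Igf1r had 26.3 and 25.5 TPM, below both values of Insr and above both values of Igfbp3, the main serum carrier, at 20.5 and 22.4 TPM. Igf1 had 14.1 and 22.1 TPM, which overlapped Igfbp3. Igfbp1 had 1.12 and 27.5 TPM, and Igfbp6, which prefers IGF2 over IGF1, 12.5 and 12.2 TPM. Except for the steps from Igfbp7 to Igfbp4, from Insr to Igf1r and from Igf1r to Igfbp3, each neighbouring pair in the order of means overlapped in its values.

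The order of the members was not the same in the libraries. Igfbp7 was the most abundant member in both, and Insr also held its place. Igfbp2 was ninth of the 10 members in replicate 1 and second in replicate 2, above Igfbp4. Igfbp1 was the lowest member in replicate 1 and sixth in replicate 2, above Igf1r. Of the summed TPM of the 7 binding protein genes, Igfbp2 took 1.54% in replicate 1 and 19.1% in replicate 2, and Igfbp1 0.272% and 4.83%. The share of Igfbp7 was 64.8% and 47.3%, while Igfbp4 took 16.05% and 15.8%. The sum itself was 411 and 570 TPM. For Igfbp1 and Igfbp2 together it was 7.44 and 136 TPM, and for Igfbp3 to Igfbp7 it was 404 and 434 TPM. Most of the difference of 159 TPM in the binding protein sum was thus that of Igfbp1 and Igfbp2, at 129 TPM.

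Each gene's counts were then compared between the libraries with an exact two-sided binomial test against TMM library sizes, with Benjamini-Hochberg adjustment over 18160 genes. The test compares 2 libraries and not conditions. At an adjusted p under 0.05 and over 2-fold, 2 of the 10 members were higher in replicate 2 and 0 were higher in replicate 1, against 3.38% and 0.606% of all genes tested (3.98% in either direction). At the adjusted threshold without the 2-fold limit, 4 members were higher in replicate 2 and 3 in replicate 1, against 15.9% and 17.6% of all genes. The second count depends on the setting: it was 1 with library sizes from total counts, 2 with those from spike-ins and 4 in the alignment-free tables, while the first stayed at 4 under each of these. In either direction 33.5% of all genes passed, so at this depth that threshold by itself picks out small differences. Folds below are of TMM-scaled counts, replicate 2 over replicate 1, with exact 95% Clopper-Pearson intervals that cover counting error only.

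Igfbp1, a binding protein made by hepatocytes and held down by insulin, had 53 counts in replicate 1 and 1172 in replicate 2. This was 22.8-fold higher in replicate 2 (interval 17.5 to 30.9, adjusted p = 2.33e-283 by the exact binomial test), the 64th highest of the 18160 log2 ratios. Igfbp2, the binding protein gene typical of fetal and newborn liver, had 253 and 3841 counts. It was 15.8-fold higher in replicate 2 (interval 13.9 to 18.03), the 106th highest log2 ratio, with an adjusted p that the computation rounded to 0. Both were among the lowest members in replicate 1, and in replicate 2 Igfbp2 stood near the top of the order and Igfbp1 in its lower part.

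Igf1 (ENSMUSG00000020053.18, chromosome 10, 87858265 to 87937042), the third liver-type member, differed far less. It had 2200 and 2971 counts, which was 1.41-fold (interval 1.33 to 1.49, adjusted p = 1.31e-32, exact binomial test) and under the 2-fold limit. Its TPM ratio, 1.57, was larger than its count ratio, and TPM also depends on the estimated transcript lengths and on the total of each library. The median log2 ratio of the 3 liver-type members was 3.98, and that of all 18160 genes was 0.00 with 5th and 95th percentiles of -0.45 and 0.83. With 3 members this median is the value of Igfbp2.

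The other 7 members lay close to equality, with a median log2 ratio of -0.07 and a range from -0.20 to 0.36. Igfbp4 (chromosome 11, 99041244 to 99054392) had the highest, with 4826 and 5949 counts, or 1.28-fold (interval 1.24 to 1.33, adjusted p = 1.14e-36, exact binomial test). Igfbp3, the neighbour of Igfbp1, had 1563 and 1535 counts, a ratio of 1.02 (interval 0.953 to 1.10). Igfbp5, the neighbour of Igfbp2, had 7480 and 6953 counts, a ratio of 0.968 (interval 0.937 to 1.001). The adjacent genes therefore had unlike ratios in both pairs. Igfbp1 stood at 0.0547 of the TPM of Igfbp3 in replicate 1 and at 1.23 times it in replicate 2, and Igfbp2 at 0.165 and 2.76 times Igfbp5.

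Igfbp6 (chromosome 15, 102144362 to 102149511) had 419 and 369 counts and a ratio of 0.918 (interval 0.796 to 1.06). Igfbp7 had a ratio of 0.950 (interval 0.922 to 0.979, adjusted p = 0.00376, exact binomial test), and this call was lost with total counts (adjusted p = 0.120) or spike-ins (adjusted p = 0.111) as library sizes. The receptor genes were lower in replicate 2 by small amounts. Igf1r (ENSMUSG00000005533.10, chromosome 7, 67952827 to 68233668) had 8582 and 7172 counts, a ratio of 0.871 (interval 0.844 to 0.898, adjusted p = 1.10e-16, exact binomial test). Insr (ENSMUSG00000005534.10, chromosome 8, 3122061 to 3279617) had 6706 and 6041 counts, a ratio of 0.939 (interval 0.906 to 0.972, adjusted p = 0.00182, exact binomial test), which missed the threshold with total counts (adjusted p = 0.0520). Igfbp3, Igfbp5 and Igfbp6 did not pass the adjusted threshold, but Igfbp5 passed it in the alignment-free tables (log2 ratio -0.08, adjusted p = 0.000823 by the exact binomial test). In alignment-based TPM, by contrast, Igfbp5, Igfbp7 and Insr were slightly higher in replicate 2. In alignment-free TPM Igfbp5 (73.1 and 71.3) and Igfbp7 (528 and 497) were lower in replicate 2 and Insr (59.6 and 67.0) higher, so for these genes the direction turns with the scale.

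**Figure D2:**
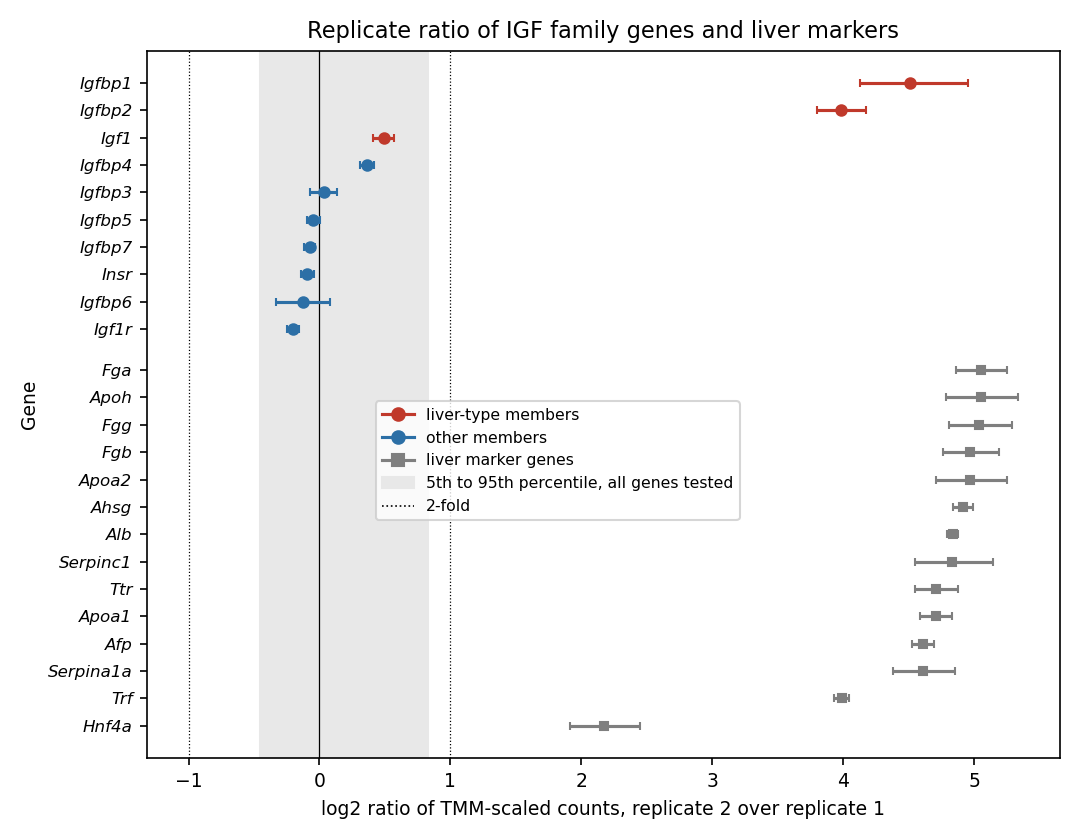
Log2 ratio of TMM-scaled counts, replicate 2 over replicate 1, with 95% counting intervals, for the 10 members (circles) and the 14 liver marker genes (squares). Igfbp1 at 4.51 and Igfbp2 at 3.98 lie with the liver genes, and the other 8 members between -0.20 and 0.49.

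Of all genes tested, 178 were over 8-fold higher in replicate 2. The liver marker genes were higher in replicate 2, as were Igfbp1 and Igfbp2. All 14 passed the test and 2-fold with higher counts in replicate 2, and their log2 ratios ranged from 2.17 to 5.05 with a median of 4.84. Alb, the gene of serum albumin, had 76.3 and 2319 TPM, and Afp, that of alpha-fetoprotein, 23.6 and 590 TPM. The lowest ratio was that of Hnf4a, a transcription factor of hepatocytes also used in kidney, at 2.17, and the next that of Trf, the transferrin gene, at 3.99. Of the 14 marker genes, 12 had a higher log2 ratio than Igfbp1 and 13 a higher one than Igfbp2. Relative to Alb, the TPM of Igfbp1 was 0.0147 in replicate 1 and 0.0119 in replicate 2, and that of Igfbp2 was 0.0829 and 0.0468. None of the marker genes was at 0 in either library. The part of liver RNA in the ratios of Igfbp1, Igfbp2 and Igf1 was not tested.

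The medians of the other marker lists were far below that of the liver genes, with some above and some below 0. The 10 capsule and stroma genes had a median log2 ratio of 0.35, with 8 of 10 above 0, a sum of 1035 and 1455 TPM, and Col3a1 and Col1a1 as the highest genes. The median was 0.81 for 7 genes of skeletal muscle (sum 603 and 1113 TPM), 0.79 for 8 erythroid genes (2413 and 4425 TPM) and 0.20 for 6 adipocyte genes (647 and 801 TPM). The 8 endothelial genes had 0.05 (302 and 343 TPM) and the 8 leukocyte genes 0.08 (93.1 and 110 TPM). On the other side, the cortex genes had a median of -0.25 (8892 and 6895 TPM), the medulla genes -0.24 (2174 and 1968 TPM) and the 5 kidney genes tested of 7 -1.50 (7.72 and 3.03 TPM for all 7). Chosen by their calls, Myh3 of muscle and Slc4a1 of erythroid cells passed the test and 2-fold with higher counts in replicate 2. The adipocyte gene Lep and the kidney genes Slc34a1, Lrp2, Aqp2 and Slc12a1 passed with higher counts in replicate 1. None of these lists had a gene at 0 in either library, and their part in the members' ratios was not tested.

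**Figure D3:**
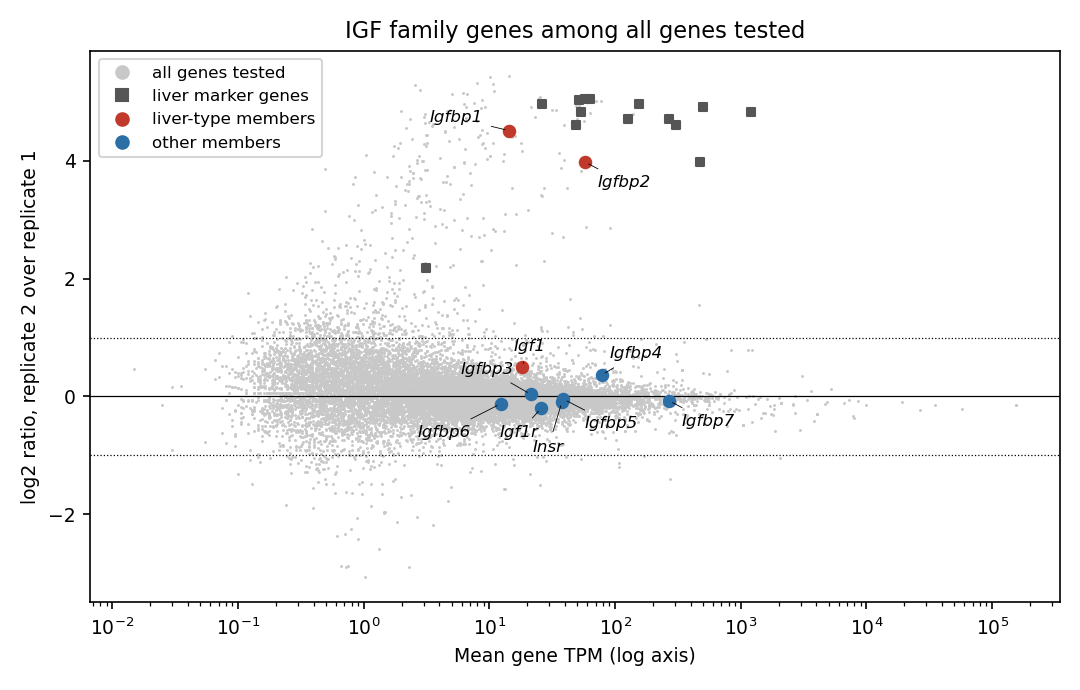
Log2 ratio of replicate 2 over replicate 1 against mean gene TPM (log axis) for the 18160 genes tested (grey points), the liver marker genes (squares) and the 10 members (coloured circles). Igfbp1 and Igfbp2 lie in the cloud of genes well above 2-fold (dotted lines), and Igf1 with the other 7 members lies within the 2-fold lines.

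The transcript tables showed which RNAs make up these levels. Igfbp1 and Igfbp6 have 1 annotated transcript each, and a single coding transcript took 99.7% of Igfbp7 TPM (Igfbp7-201), 97.0% of Igfbp3 (Igfbp3-201) and 100% of Igfbp5 (Igfbp5-201) in the alignment-based tables. The same transcript was highest in both kinds of table for 9 of the 10 members. Igfbp2 differed between the libraries in make-up as well as level, but so did the make-up of members whose level hardly differed. In the alignment-based tables the top coding transcript took 100% and 92.6% of Igfbp2 TPM in replicates 1 and 2. For Insr it took 54.3% and 47.0%, and for Igf1r 84.1% and 74.4% in the alignment-free tables. The shares of Igfbp3 (97.4% and 96.6%) and Igfbp7 (99.8% and 99.6%) were nearly equal in the alignment-based tables. The short coding transcript Igfbp2-202 had 0 of 253 counts in replicate 1, which allows a share of up to 1.19%, and 204 of 3841 counts (5.30%) in replicate 2. In the alignment-free tables it took 10.3% of Igfbp2 TPM in replicate 2 and listed almost none in replicate 1. These counts are shared among overlapping transcripts by estimation, which the limit does not cover.

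In TPM, Igf1r exceeded Insr only when the long coding transcript of each was taken alone. In alignment-based counts, which are not scaled by length, Igf1r stood at 1.28 and 1.19 times Insr in replicates 1 and 2. Over all transcripts, the ratio of Igf1r to Insr TPM was 0.735 in replicate 1 and 0.639 in replicate 2. The long coding transcripts alone, Igf1r-201 (11409 bases) and Insr-201 (9355 bases), had 22.2 and 20.3 TPM and 19.4 and 18.7 TPM, a ratio of 1.14 and 1.08. With all coding transcripts summed, Insr stayed higher in both libraries, at 25.2 and 27.7 TPM against 22.2 and 20.3 TPM for Igf1r. In the alignment-free tables the ratio was 0.776 and 0.674 over all transcripts and 1.09 and 1.02 for the long coding ones. The transcript Insr-202, annotated as a retained intron, took 25.5% ± 0.227 of Insr TPM (SD, n = 2), and the coding model of 672 bases, Insr-203, 19.5% ± 4.50. By counts, these models held 7.12% and 1.64% of Insr in replicate 1, because TPM weighs short models more. The retained-intron models of Igf1r together took 15.7% and 20.5% of its TPM.

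Igfbp4 was the member for which the tables named different main transcripts. Igfbp4-201, the coding transcript of 3831 bases, took 50.6% ± 0.363 in the alignment-based tables and 44.2% ± 1.61 in the alignment-free ones. The alignment-based tables placed 41.8% ± 3.24 on Igfbp4-203, a processed transcript of 785 bases, to which the alignment-free tables gave 0. They placed 47.2% ± 2.58 on Igfbp4-202, a processed transcript of 799 bases, in its stead. By alignment-based counts, Igfbp4-203 held 12.3% and 13.7% of Igfbp4 in replicates 1 and 2, and Igfbp4-201 held 86.0% and 85.1%. Counted by Igfbp4-201 alone, the level of the gene was 39.5 ± 8.38 TPM, close to Igfbp5 at 38.8 ± 0.834 TPM, and the step from Igfbp4 to Igfbp5 rests on the short transcripts. Igf1 had 8 transcripts, all coding, and Igf1-202 (7052 bases) took 58.9% ± 2.29 of its TPM. The second Igf1 transcript was Igf1-203 at 20.6% in the alignment-based tables and Igf1-205 at 36.6% in the alignment-free ones, which listed Igf1-203 at 0.

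**Figure D4:**
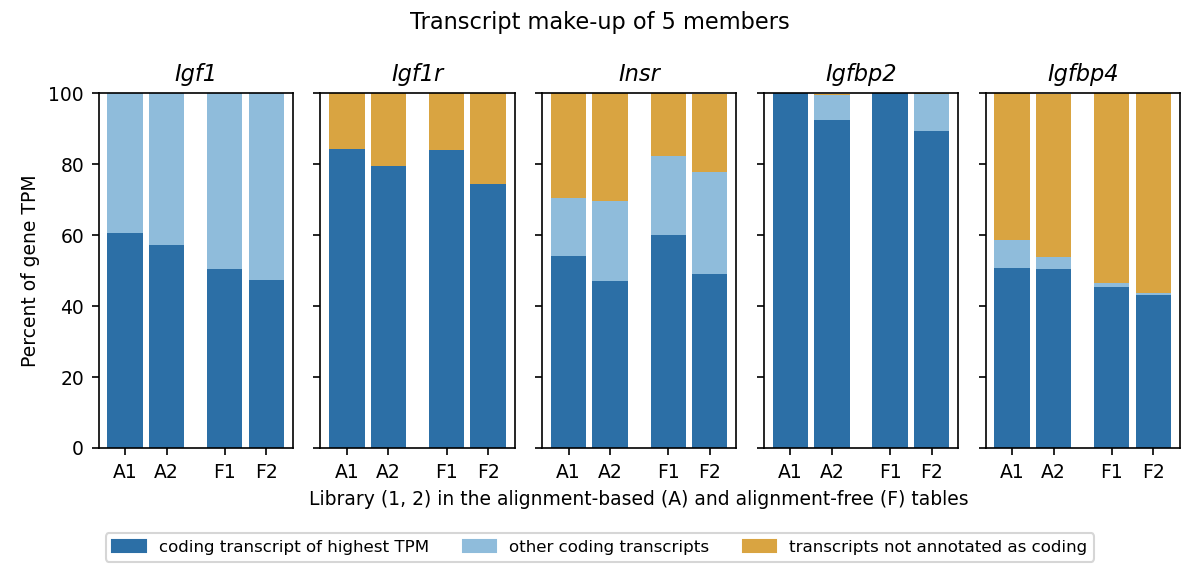
Percent of gene TPM in the coding transcript of highest TPM, in other coding transcripts and in transcripts not annotated as coding, for 5 members in each library and each kind of table. Igfbp2 shows other coding transcripts in replicate 2 (7.04% and 10.3%) and almost none in replicate 1, and Igfbp4 has the largest share outside coding transcripts of these 5 members.

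The wider IGF and insulin pathway was read from a list of 44 further genes. Of these 43 were tested, 1 was higher in replicate 2 and 1 was higher in replicate 1 past the test and 2-fold, against 3.38% and 0.606% of all genes, and their median log2 ratio was 0.01. The total of 2 is near the share of 3.98% over all genes in either direction. Igf2, the gene of the fetal growth factor, had 238 and 474 TPM. It exceeded Igf1 by 16.9 times in replicate 1 and 21.4 times in replicate 2. Its log2 ratio between libraries was 0.92, under 2-fold. Igf2r, the receptor that clears IGF2, had 23.6 and 27.1 TPM, a range that overlapped Igf1r. Igfals, the liver-made subunit that joins IGFBP3 and IGF1 in the large serum complex, had 10 and 166 counts (0.140 and 2.62 TPM). The filter on low counts removed Igfals because of its few counts in replicate 1. Without the filter it was 16.3-fold higher in replicate 2 (adjusted p = 1.49e-36 by the exact binomial test), and 10.7-fold in the alignment-free tables. Igfbpl1, a distant relative of the binding proteins, had 11 and 42 counts and was 3.85-fold higher (adjusted p = 8.33e-05, exact binomial test).

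Most regulators of binding protein turnover were under 1 TPM. Of 6 genes, 2 passed 1 TPM, Htra1 at 20.4 ± 4.29 TPM and Adamts1 at 7.76 ± 0.665 TPM, both secreted proteases, and 0 passed the test and 2-fold. Stc1, a stanniocalcin gene, followed at 0.925 ± 0.0212 TPM. All 6 genes of growth hormone input passed 1 TPM, led by Stat5b (27.3 ± 4.19 TPM), Ghr, the growth hormone receptor gene (19.8 ± 4.41 TPM), and Stat5a (14.7 ± 0.354 TPM), with 0 past the test and 2-fold.

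Among 8 adaptor genes, 7 passed 1 TPM. Grb10, an imprinted inhibitor of both receptors, led at 102 ± 5.97 TPM, followed by Shc1 at 49.8 ± 2.07 TPM and Grb2 at 45.4 ± 3.43 TPM. Irs4, a docking protein of the insulin receptor substrate family, had 170 counts in replicate 1 and 65 in replicate 2. It was the only adaptor past the test and 2-fold, at 0.400 of its replicate 1 level (interval 0.295 to 0.533, adjusted p = 6.38e-10, exact binomial test). Like Lep and the kidney genes above, Irs4 was higher in replicate 1. All 9 cortex and all 8 medulla marker genes also had log2 ratios below 0, with 0 past the test and 2-fold. Whether Irs4 is linked to any of these genes was not tested. All 16 kinases and effectors passed 1 TPM, led by Akt1 (123 ± 1.87 TPM), Akt2 (80.5 ± 3.56 TPM) and Pik3r1 (43.5 ± 0.375 TPM). Their log2 ratios lay between -0.16 and 0.19, and 0 passed 2-fold. The 3 genes of IGF2 mRNA-binding proteins were also all detected, with Igf2bp2 at 15.01 ± 0.672, Igf2bp1 at 6.37 ± 0.728 and Igf2bp3 at 5.55 ± 0.622 TPM, and 0 past the test and 2-fold.

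**Figure D5:**
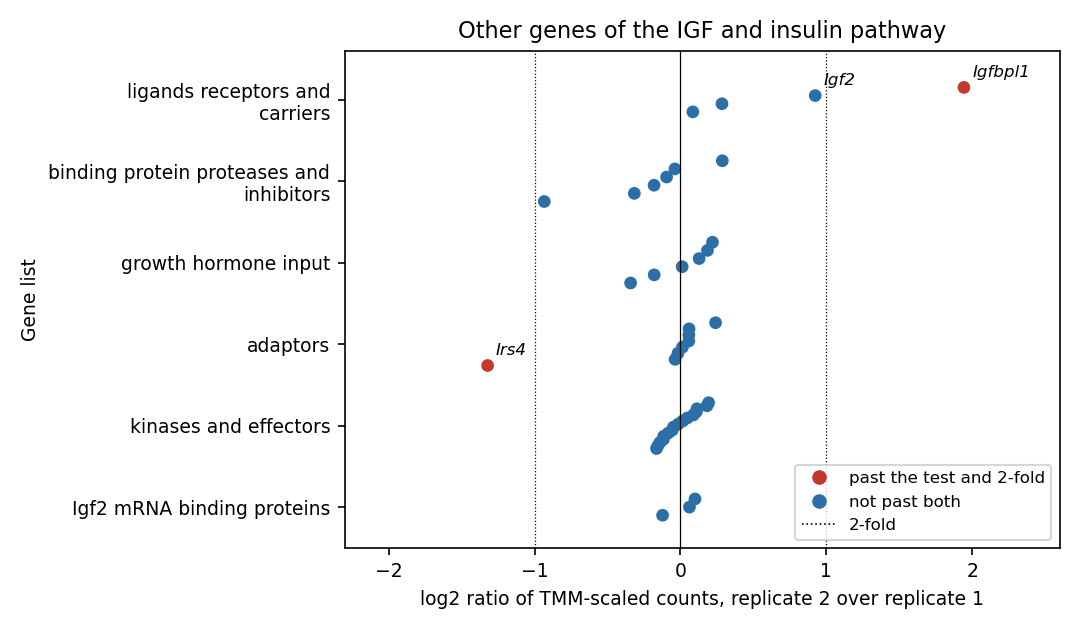
Log2 ratio of TMM-scaled counts, replicate 2 over replicate 1, for the 43 tested pathway genes in 6 lists, with genes past the test and 2-fold in red and dotted lines at 2-fold. Igfbpl1 lies at 1.94 and Irs4 at -1.32, while the 16 kinases and effectors lie between -0.16 and 0.19.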

How the data were processed

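Total RNA of 2 adrenal samples was sequenced, with ERCC spike-ins added to an input of 300 ng and a directional library kit used, per the labels' protocols. The authors deposited expected counts and TPM per gene and per transcript, made from a transcriptome alignment, and estimated counts and TPM from an alignment-free index, all against mm10 and GENCODE M21, per the README that accompanies the deposited files. Of the programs, their settings and the handling of reads from the CAST/EiJ allele, no source used here says anything. Spike-ins took 1.06% of counts in each library and 26248 numbered rows held 3 and 2 counts; all of these were left out.

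Counts were rounded to whole numbers. Genes passing filterByExpr in edgeR 4.0.16 (R 4.3.3) were scaled with TMM and tested with an exact binomial test in scipy 1.17.1, with a prior count of 0.5 in log2 ratios. The procedure was tested on simulated data that held counting error only. That test could not show how the procedure handles spread between animals. The filter asks for counts in both libraries. Levels are mean TPM ± SD over 2 libraries. Promoter windows came from RefSeq (GRCm38.p6), in which 9 of the 10 members matched. The members, the liver-type set, the pathway and marker lists and the tests were chosen with earlier results of these data known. Named genes were all members, the 3 highest and all called genes of each pathway list, any liver marker gene and at most the 2 highest genes of each other marker list. Marker genes beyond this rule, Myh3, Slc4a1, Lep, Aqp2 and Slc12a1, were chosen after their values were seen.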

Additional observations from a re-analysis of the deposited data

How the results depend on the processing

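Library sizes from DESeq2 1.42.0, total counts or spike-ins, no filter on low counts, and the alignment-free tables each left 2 members, Igfbp1 and Igfbp2, and all 14 liver marker genes past the test and 2-fold. At the adjusted threshold without the 2-fold limit, Igfbp7 was lost with total counts or spike-ins, Insr was lost with total counts, and Igfbp5 was gained in the alignment-free tables. The pathway count was 2, and 3 without the filter or in the alignment-free tables, where Igfals was added. Every member kept the sign of its log2 ratio under these settings and a prior count of 2, with Igfbp1 between 4.31 and 4.54, Igfbp2 between 3.97 and 4.06 and Igf1 between 0.43 and 0.52. Counting Igfbp4 as liver-type moved the median of that set from 3.98 to 2.24, since it then averages Igf1 and Igfbp2. The other scalings moved the median of all genes by at most 0.03. Rescaled to nuclear protein-coding genes, which took 33.8% and 36.4% of TPM, Igfbp7 had 789 and 740 TPM. The mean TPM of every member rose with this rescaling, and it was also higher in the alignment-free tables. There the mean was 39.3 against 18.1 TPM for Igf1, 154 against 78.1 for Igfbp4 and 512 against 268 for Igfbp7. Without replicate 1 or without replicate 2 a level is that of 1 library, as given above. The single coding transcripts of highest TPM and the sums over coding transcripts were alternatives chosen after seeing the data. No paired analysis was possible because the series has 1 group. Counting intervals do not cover differences between animals.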
